A study of Homo sapiens with 6 samples.

Results

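The interferon receptors and their Janus kinases were described in SKOV3 cells as a set of 9 genes, chosen by symbol among the 60498 genes of the table. They comprise 6 receptor chains (IFNAR1, IFNAR2, IFNGR1, IFNGR2, IFNLR1 and IL10RB) and 3 kinases (JAK1, JAK2 and TYK2). SKOV3 is an established ovarian cancer line that is heterozygous at STING1 (WT/HAQ), HAQ being a common STING1 haplotype with several amino acid changes. From it, CRISPR editing with a pair of guide RNAs gave a clone with the WT allele alone (WT/-) and a clone with the HAQ allele alone (HAQ/-). Each line gave 1 control library and 1 library from cells exposed to 10 μg/mL 2'3'-cGAMP, the ligand of STING1, for 30 min in digitonin buffer and then rested for 4 h. The sources used here do not describe how control cells were handled. The 6 libraries held 12444822 to 17608467 counts after rounding, and no condition had a replicate. Because each edited line is 1 clone, haplotype and clone cannot be told apart.

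Interferons are secreted proteins that cells sense through paired receptor chains. Type I interferons bind IFNAR1 with IFNAR2, which signal through TYK2 and JAK1, interferon gamma binds IFNGR1 with IFNGR2, which signal through JAK1 and JAK2, and the type III interferons (lambda) bind IFNLR1 with IL10RB, which signal through JAK1 and TYK2. Activated kinases phosphorylate STAT factors, which enter the nucleus with or without IRF9, while USP18 and the SOCS proteins dampen the signal. STING1 lies upstream of this system, since its activation by cGAMP induces interferon genes. The question was therefore whether the lines differ in RNA for the machinery that receives secreted interferon.

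Of the 9 genes, 8 passed the filter of a mean count of at least 10, as did 15126 genes in all. IFNLR1 did not. Levels are given as normalized counts, that is, counts divided by a library scale factor (TMM), with 95% intervals that cover counting error only. Epithelial markers, 10 genes, summed to between 72859 and 113136 normalized counts per library, of which ERBB2 held 46462 to 69247, while MUC16 had 0.872 to 68.4. Of 10 immune markers, CD3D, NKG7 and MS4A1 were at 0 in every library, and the 10 summed to 410.6 to 707.2, of which CD68, which is not restricted to immune cells, held 409 to 698. The 7 fibroblast markers summed to 1355 to 2220 normalized counts, COL1A1 among them with 792 to 1121, and 5 endothelial markers to 27.0 to 112. KRT19, an epithelial keratin, had 5629 and 3605 normalized counts in WT/HAQ but 364 and 369 in the WT/- clone and 414 and 343 in the HAQ/- clone, in the order control and cGAMP. Between the clones, edgeR called 3 of the 10 epithelial markers lower in HAQ/- and 1 higher, where 11.1% of all genes were lower and 7.94% higher. Among them were KRT7 (-0.98, adjusted p = 0.0186), KRT8 (-0.43, adjusted p = 0.0345) and ERBB2 (0.48, adjusted p = 0.0142). edgeR also called the endothelial marker KDR lower (-2.26, adjusted p = 0.0360). DESeq2 called 2 epithelial markers lower and 1 higher, for which its share of all genes is not given. The clones thus differed from the parent and from each other in genes outside the interferon system, and the part of such clonal differences in the results was not tested.

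The ligands come first, since they are what the receptors could sense. Of 22 interferon genes, 6 were analysed. In edgeR's quasi-likelihood test over the 3 lines, with the line as a block, 4 of them were called higher with cGAMP (adjusted p under 0.05). That test called 2.27% of all genes higher and 0.959% lower. The 4 genes had at most 7 counts in a control library. They passed the count filter only through treated libraries of lines with a WT allele, so their number is not read against that share. IFNB1, a type I interferon, had 4.42, 1.87 and 5.23 normalized counts in the WT/HAQ, WT/- and HAQ/- control libraries and 1259, 2583 and 16.4 with cGAMP. IFNL1, a type III interferon, had 3.54, 3.73 and 6.11 normalized counts without and 1497, 2181 and 18.6 with cGAMP. RNA of these 2 ligands was thus high in the treated libraries of the lines with a WT allele and stayed below 20 normalized counts in HAQ/-. IFNE, another type I interferon, did not share this, with 63.6, 99.9 and 98.6 normalized counts without and 36.1, 41.4 and 118 with cGAMP, and was not called. IFNL2 had 2, 1 and 0 counts in the WT/HAQ, WT/- and HAQ/- control libraries and 227, 388 and 0 with cGAMP. It thus had no count in HAQ/-, and its call rests on the lines with a WT allele. IFNL3 had 2, 0 and 0 counts without and 286, 403 and 3 with cGAMP. IFNL2 and IFNL3 are near-identical genes whose reads can be split between them, so their single values are uncertain. IFNG had 1 count in the WT/HAQ control library and 0 in the other 5. The adjusted p over the 3 lines was 0.0166 for IFNB1, 0.0174 for IFNL1, 0.00757 for IFNL2 and 0.00464 for IFNL3, and without the WT/- libraries the test called 0 genes in either direction. Without the line block these 4 calls were lost as well, and without the WT/HAQ libraries those of IFNB1 and IFNL1.

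**Figure D1:**
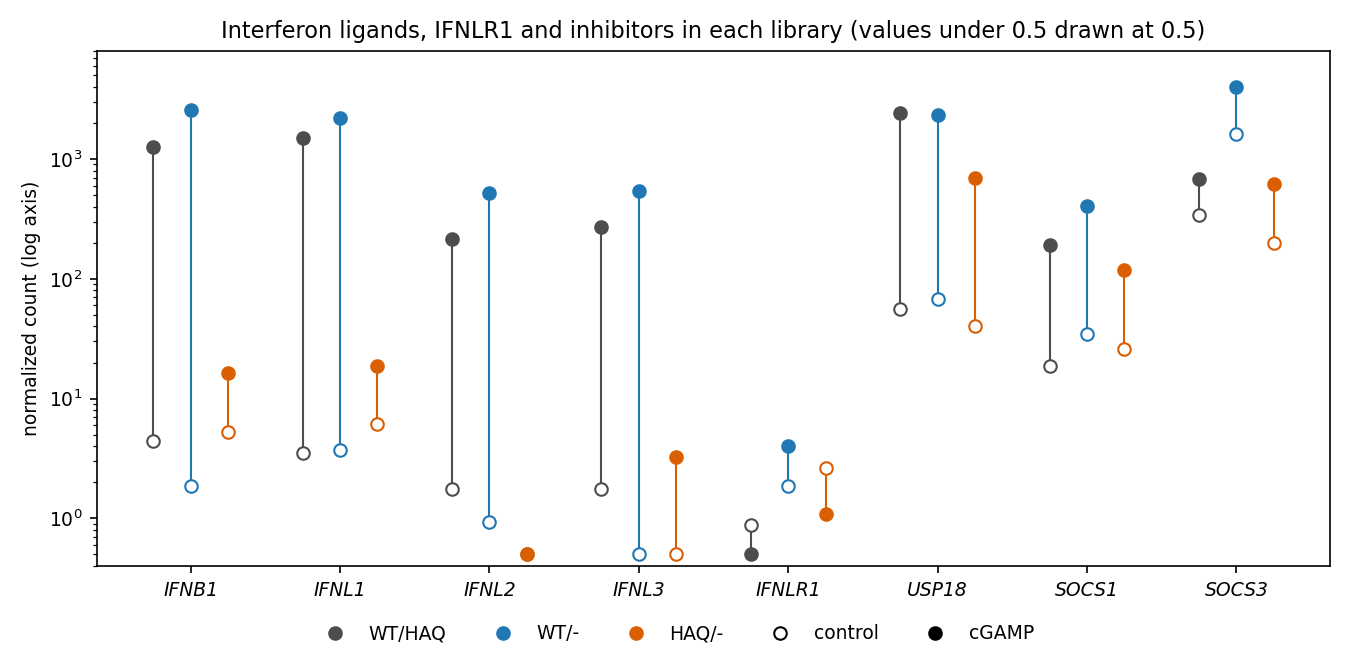
Normalized counts (log axis) of 4 interferon genes, IFNLR1 and 3 inhibitors in each library, with open points for control, filled points for cGAMP and a colour per line. IFNB1 reached 1259 and 2583 in the treated WT/HAQ and WT/- libraries and 16.4 in HAQ/-, whereas IFNLR1 never exceeded 4.01.

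Type III interferon RNA met almost no RNA for its own receptor chain. IFNLR1, which gives the complex its specificity for interferon lambda, had 1, 2 and 3 counts in the WT/HAQ, WT/- and HAQ/- control libraries and 0, 3 and 1 counts in the matching cGAMP libraries. No line or treatment stood out, and no fold is given because every value was at or under 3 counts. The count of 0 in the treated WT/HAQ library allows up to 3.51 normalized counts. Per length (counts per kilobase of merged exon, scaled to a common total over the annotated genes), IFNLR1 lay between 0 and 0.194, against 7.67 to 13.5 for IL10RB, the partner chain that it shares with other cytokine receptors.

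JAK2 was the member that differed most between control and cGAMP libraries. JAK2 (ENSG00000096968, chromosome 9 from 4984390 to 5129948 of GRCh38, plus strand) had 145 normalized counts (124 to 169) in control cells of WT/HAQ, 133 (112 to 157) in those of WT/- and 142 (121 to 166) in those of HAQ/-. With cGAMP it had 1845 (1764 to 1929), 1286 (1206 to 1370) and 280.2 (247 to 317). The 3 control intervals overlapped, while each treated library lay above its control and the treated HAQ/- library lay far below the other 2. The fold was 12.7 (10.85 to 15.02) for WT/HAQ, 9.64 (8.08 to 11.6) for the WT/- clone and 1.97 (1.61 to 2.41) for the HAQ/- clone. On the log2 scale the fold in HAQ/- minus that in WT/- was -2.29 (counting interval -2.67 to -1.91). With 1 library per line and treatment this difference between lines was not tested. Over the 3 lines edgeR gave a log2 fold change of 2.71 ± 0.54 (SE) with adjusted p = 0.0689, higher in 3 of 3 lines, so JAK2 was not called. Without the HAQ/- libraries it was called, at 3.47 with adjusted p = 6.65e-06, and DESeq2 on all 6 libraries gave adjusted p = 0.00625. Over the 9 alternatives the adjusted p ranged from 6.65e-06 to 0.391.

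The 5 genes whose log2 normalized counts followed JAK2 most closely over the 6 libraries, by Euclidean distance after centring each gene, were CCDC6, FZD4, HIP1R, AFAP1 and GLCCI1. CCDC6, the nearest at a distance of 0.295, had 1651, 1236 and 1474 counts in the WT/HAQ, WT/- and HAQ/- control libraries and 17877, 10648 and 2594 with cGAMP. Within the JAK2 interval on the same strand lie several pseudogenes, named here after their values were seen. TCF3P1 had 0, 1 and 1 counts without and 32, 14 and 1 with cGAMP, IGHEP2 had 0, 0 and 1 without and 26, 3 and 2 with it, and the others had at most 10 in a library. Reads from overlapping genes on 1 strand cannot be assigned with certainty.

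Upstream sequence is shown for 3 members, because JAK2 differed most with cGAMP, IFNGR2 had the largest difference between the clones over both treatments, and IFNLR1 was near 0. RefSeq's promoter table (GRCh38.p14) held 15 start sites for 8 of the 9 members, and IFNAR2 was not matched. The 250 bases before each start were searched on both strands for a core of the interferon-stimulated response element and for the gamma-activated sequence bound by STAT dimers. The first motif was in 0 of the 15 member windows and in 3.02% of 35116 windows in all, the second in 1 member window, that of IFNLR1, and in 6.57% in all. The JAK2 window is 1 of its 4, and the IFNLR1 window lies upstream of a RefSeq start but within the GENCODE interval of the gene. The printed windows overlap no annotated exon, end at the base before the start site and read 5′ to 3′ on the gene's strand. JAK2 is at chr9:4984140-4984389 on the plus strand, IFNGR2 at chr21:33403163-33403412 on the plus strand, and IFNLR1 at chr1:24187290-24187539 on the minus strand, with its match in capitals.
JAK2: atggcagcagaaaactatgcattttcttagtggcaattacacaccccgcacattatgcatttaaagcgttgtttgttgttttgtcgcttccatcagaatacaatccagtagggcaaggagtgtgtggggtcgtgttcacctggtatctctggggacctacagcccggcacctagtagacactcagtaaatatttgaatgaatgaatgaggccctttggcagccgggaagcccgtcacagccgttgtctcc
IFNGR2: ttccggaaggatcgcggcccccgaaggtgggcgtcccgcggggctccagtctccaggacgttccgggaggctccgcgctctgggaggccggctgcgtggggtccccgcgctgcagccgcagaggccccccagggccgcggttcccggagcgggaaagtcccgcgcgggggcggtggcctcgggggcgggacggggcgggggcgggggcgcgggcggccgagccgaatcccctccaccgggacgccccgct
IFNLR1: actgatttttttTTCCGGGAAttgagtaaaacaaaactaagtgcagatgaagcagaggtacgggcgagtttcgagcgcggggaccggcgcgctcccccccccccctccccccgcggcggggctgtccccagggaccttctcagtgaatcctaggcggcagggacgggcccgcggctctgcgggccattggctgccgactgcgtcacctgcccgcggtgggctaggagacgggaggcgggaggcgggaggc
A match describes letters in a window and shows no binding, and the absence of one says only that these letters are not in this window.

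Among the other members, IFNGR1 alone was past 1.5-fold with cGAMP, in WT/HAQ. In edgeR's test over the 3 lines, 0 of the 8 analysed members were called, against the 2.27% and 0.959% of all genes given above, and their median log2 fold change was 0.01 beside 0.00 for all genes (0.005 and -0.004). At an unadjusted p under 0.05 there were 1 higher (JAK2) and 2 lower (IFNGR1 and IFNGR2). The share of all genes at that threshold is not given, here or below. DESeq2 called 1 member higher and 0 lower, where it called 772 genes higher and 583 lower in all. By the 1.5-fold rule within a line, JAK2 alone was raised, 1 of 8 members in each line, where 12.8% of genes were raised and 12.3% lowered in WT/HAQ, 11.9% and 8.77% in the WT/- clone, and 6.75% and 5.76% in the HAQ/- clone. Of the members, 1 was lowered in WT/HAQ and 0 in the clones.

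The lowered member was IFNGR1, the ligand-binding chain of the interferon gamma receptor. Its levels were 1570 normalized counts (1498 to 1644) without and 999.9 (940.4 to 1062) with cGAMP in WT/HAQ, 2093 (2007 to 2182) and 1410 (1327 to 1498) in the WT/- clone, and 898.6 (845 to 955) and 837 (779 to 899) in the HAQ/- clone. The treated library was below its control in all 3 lines, and only in HAQ/- did the intervals overlap. The fold was 0.637 (0.590 to 0.688), 0.674 (0.626 to 0.725) and 0.932 (0.848 to 1.02) in the same order of lines. edgeR gave -0.44 ± 0.12 (SE) with adjusted p = 0.111, and without the HAQ/- libraries -0.61 with adjusted p = 0.00312. IFNGR2, the signalling chain of the same receptor, had folds of 0.818, 0.866 and 0.874 (adjusted p = 0.116).

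IFNAR2, the high-affinity chain of the type I receptor, had folds of 1.29 (1.17 to 1.42) for WT/HAQ, 0.908 (0.826 to 0.996) for the WT/- clone and 1.19 (1.05 to 1.34) for the HAQ/- clone, so its direction was not shared by the lines. IFNAR1, JAK1, TYK2 and IL10RB had folds between 0.893 and 1.26 in every line.

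**Figure D2:**
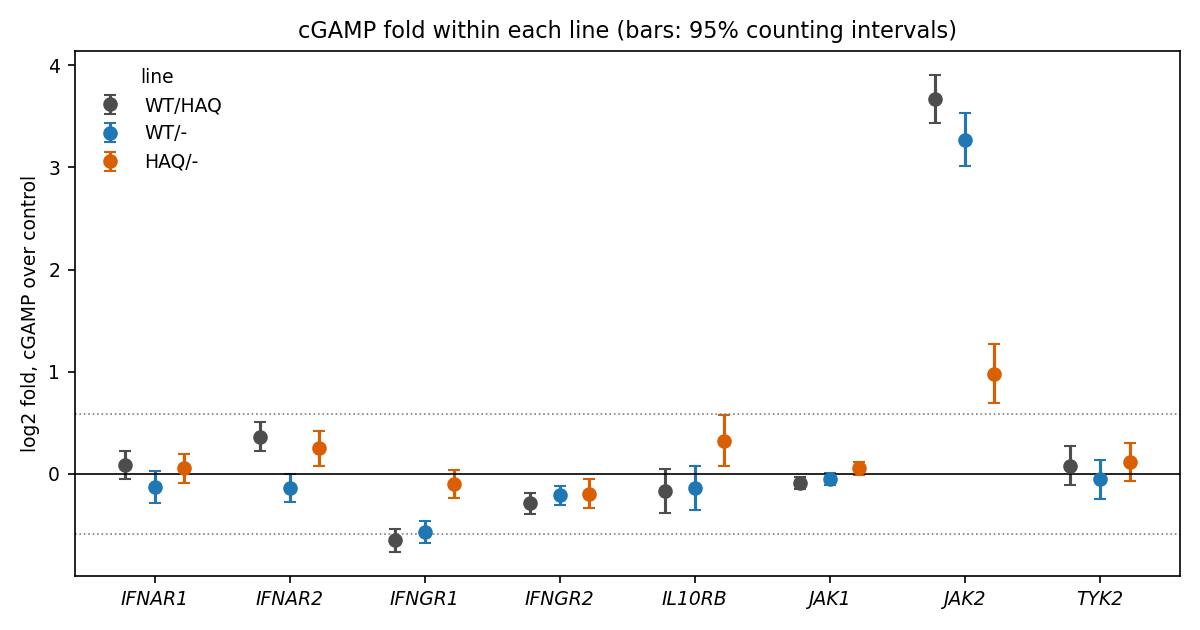
The log2 ratio of normalized counts, cGAMP over control, for the 8 analysed members in each line, with 95% counting intervals and dotted lines at 1.5-fold. JAK2 stands at 3.67, 3.27 and 0.98 in WT/HAQ, WT/- and HAQ/-, and IFNGR1 at -0.65, -0.57 and -0.10.

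The comparison of the clones asks whether a line carries more or less receptor and kinase RNA on average over its control and cGAMP library. Such an average does not show that a difference held in each treatment. In the edgeR contrast HAQ/- minus WT/-, with treatment as a block, 5 of 8 members were lower in HAQ/-, while 11.1% of all genes were called lower and 7.94% higher. The members' median log2 fold change was -0.80, beside -0.01 (-0.015) over all genes. No member was higher, by edgeR at an unadjusted p under 0.05 or by DESeq2. DESeq2 called 4 of the 8 lower, for which the share of all genes is not given. Without the treatment block edgeR called 2, where 369 genes were lower and 341 higher in all. The 5 members called with the block were IFNGR2, IFNGR1, IFNAR2, IL10RB and JAK1.

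IFNGR2 (ENSG00000159128) had the largest difference in this contrast, whereas in the cGAMP libraries alone the ratio of HAQ/- to WT/- was further from 1 for JAK2 (0.218). Its levels were 1545 normalized counts without and 1264 with cGAMP in WT/HAQ, 2232 and 1933 in the WT/- clone, and 872 and 762 in the HAQ/- clone. Both WT/- libraries were the highest, both HAQ/- libraries the lowest, and the parent lay between them, with no overlap between lines. The ratio of HAQ/- to WT/- was 0.390 (0.362 to 0.421) in the control libraries and 0.394 (0.360 to 0.432) in the cGAMP libraries. edgeR gave -1.35 ± 0.08 (SE) with adjusted p = 0.00221 for HAQ/- minus WT/-. IFNGR2 was also the 1 member called in each contrast with the parent. WT/- exceeded WT/HAQ by 0.57 ± 0.08 (adjusted p = 0.0239), where 4.99% of genes were higher and 3.81% lower, and HAQ/- was below WT/HAQ at -0.78 ± 0.08 (adjusted p = 0.0291), where 0.377% were higher and 0.846% lower. Without the WT/- libraries the last call was lost (adjusted p = 0.179, and 0 genes called), and without the treatment block both were (0.144 and 0.206). These 2 contrasts share the WT/HAQ libraries.

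IFNAR2 had 681 and 878 normalized counts without and with cGAMP in WT/HAQ, 1079 and 979 in the WT/- clone, and 487 and 579 in the HAQ/- clone. HAQ/- was again lowest and WT/- highest in both treatments, and the contrast gave -0.96 ± 0.14 (SE) with adjusted p = 0.0148. For IFNGR1 it gave -0.98 ± 0.15 with adjusted p = 0.0165. Without the treatment block both calls were lost, at adjusted p = 0.0512 for IFNAR2 and 0.115 for IFNGR1. JAK1, the kinase common to all 3 receptors, had 4437 and 4171 normalized counts in WT/HAQ, 5757 and 5560.2 in the WT/- clone, and 3761 and 3908 in the HAQ/- clone, which gave -0.56 ± 0.08 with adjusted p = 0.0147. IL10RB had 349 and 312 normalized counts in WT/HAQ, 426 and 387 in the WT/- clone, and 232 and 291 in the HAQ/- clone, with -0.64 ± 0.16 and adjusted p = 0.0468. That call was lost with DESeq2 (adjusted p = 0.0628), without the WT/HAQ libraries (0.0540) and without the treatment block (0.0847). With DESeq2 size factors in edgeR it stood at the threshold (adjusted p = 0.05 after rounding). Its adjusted p ranged from 0.0261 to 0.0847 over 7 alternatives.

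IFNAR1, TYK2 and JAK2 were not called. JAK2 had the second largest estimate of the members with the largest SE (-1.07 ± 0.66, adjusted p = 0.304). IFNAR1, the chain that TYK2 binds, had 760.1 and 809 normalized counts in WT/HAQ, 773 and 708 in the WT/- clone, and 756 and 786 in the HAQ/- clone. All 6 values lay within a log2 range of 0.19, and 3.10% of the analysed genes had a smaller range. TYK2 had 395 and 418 normalized counts in WT/HAQ, 548 and 528 in the WT/- clone, and 447 and 484 in the HAQ/- clone, and the HAQ/- minus WT/- contrast gave -0.21 ± 0.10 with adjusted p = 0.183.

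IFNAR1, IFNAR2, IFNGR2 and IL10RB are neighbours on chromosome 21, within 274067 bp from 33205282 to 33479348 of GRCh38. Of 10 listed neighbours, edgeR called 0 in HAQ/- minus WT/-, where 11.1% of all genes were lower and 7.94% higher, with a median log2 fold change of 0.04. At an unadjusted p under 0.05 there were 2 higher and 0 lower, and DESeq2 called 0 in each direction. The closest to a call were GART (0.43, adjusted p = 0.0618) and ATP5PO (0.25, adjusted p = 0.0916). IFNGR2 overlaps TMEM50B, named after its values were seen, on the opposite strand, and the sources used here do not say whether counting used strand. TMEM50B had 942 to 1085 normalized counts in HAQ/- and 1075 to 1165 in WT/-. The antisense gene IL10RB-AS1, not among the 10 and also named after its values were seen, overlaps IFNAR2 on the opposite strand and was lower in HAQ/- than in WT/- (-1.07 ± 0.12, adjusted p = 0.00886), with 342, 438 and 220 counts in the WT/HAQ, WT/- and HAQ/- control libraries and 371, 295 and 173 with cGAMP. The neighbourhood was therefore not without other differences, and reads of IFNAR2 and IL10RB-AS1 cannot be told apart if counting ignored strand. IFNAR2 and IL10RB share exons with a readthrough gene that held 4 to 19 counts per library.

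**Figure D3:**
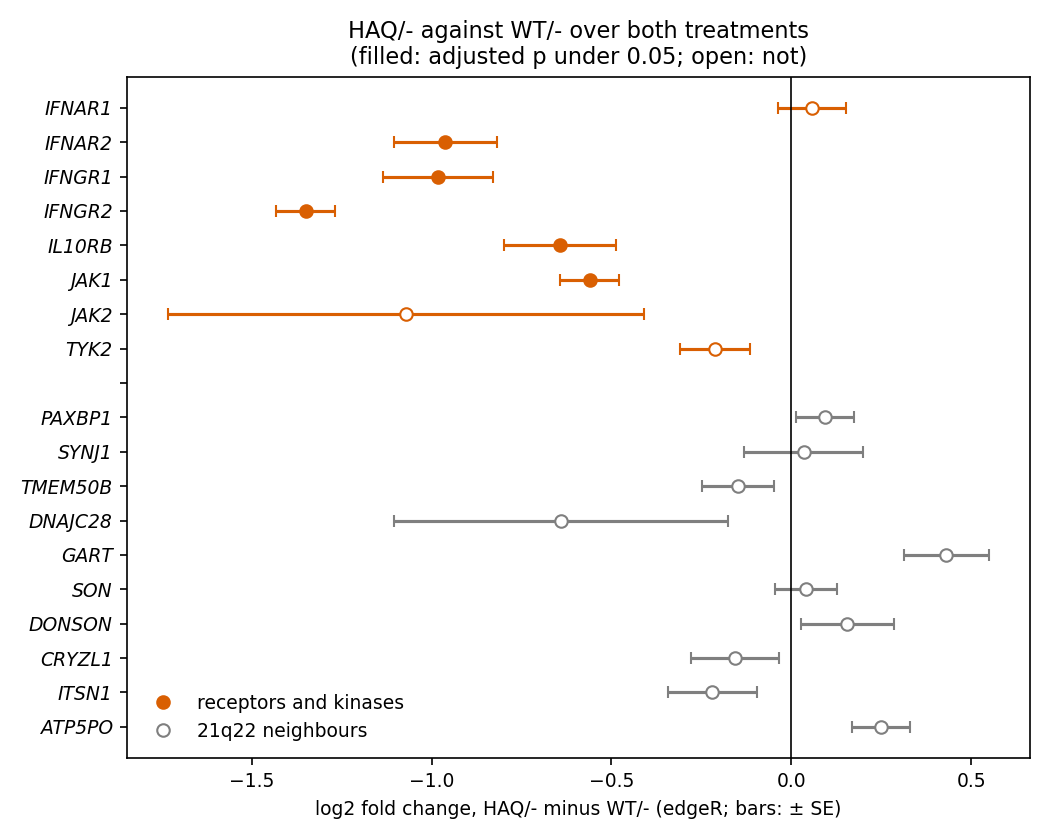
edgeR log2 fold changes, HAQ/- minus WT/-, with SE, for 8 members and 10 neighbours of the chromosome 21 receptors, filled where the adjusted p was under 0.05. The 5 called members lie between -1.35 and -0.56, and IFNAR1 (0.06) lies among its neighbours.

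**Figure D4:**
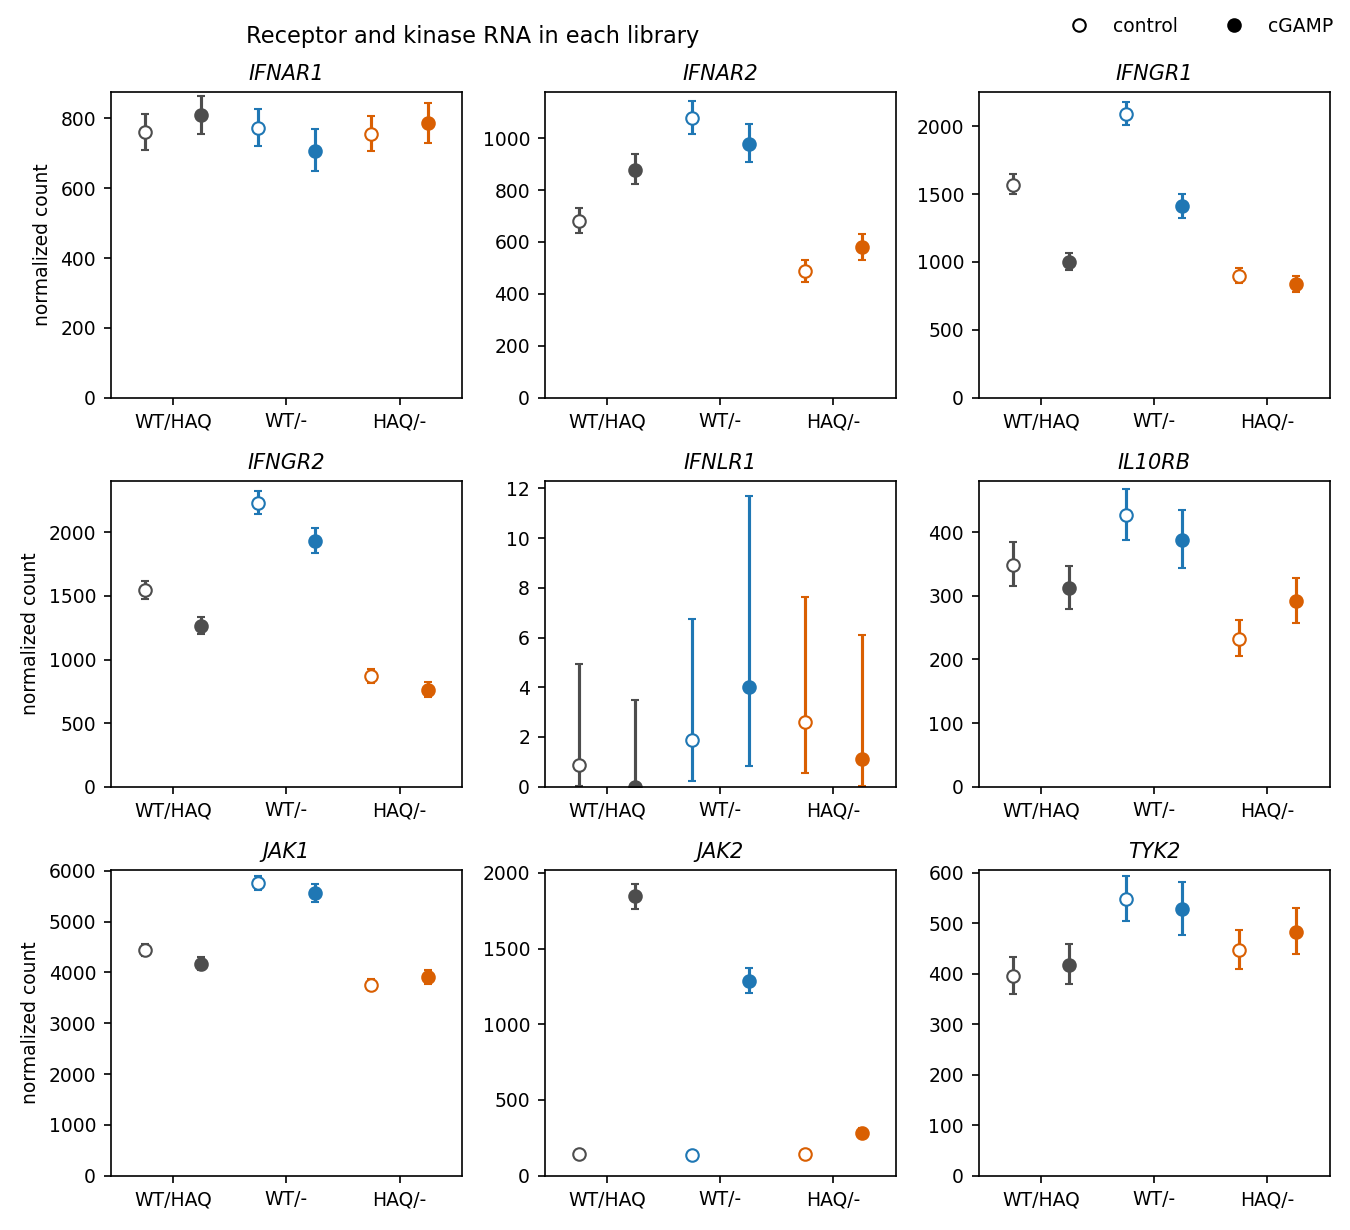
Normalized counts of each member in the 6 libraries, with 95% Poisson intervals, open points for control and filled points for cGAMP. For IFNGR2 the lines are ordered WT/- (2232 and 1933), WT/HAQ (1545 and 1264) and HAQ/- (872 and 762).

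Levels of the components of a receptor were compared per length. On merged exons, the scarcest component of the interferon gamma receptor was JAK2 in every library, at 4.65, 4.27 and 4.77 counts per kilobase on that scale in the WT/HAQ, WT/- and HAQ/- control libraries and 57.4, 38.8 and 9.34 with cGAMP. The next component of that receptor stood at 67.2 to 111 in the control libraries. The next component with cGAMP was IFNGR1, at 69.3, 94.9 and 62.2. JAK2 was also scarcest with the length of 1 reference transcript per gene, at 3.21, 2.98 and 3.32 without and 39.8, 27.2 and 6.48 with cGAMP, where IFNGR1 stood at 73.0, 101 and 65.6. For the type I receptor, IFNAR1, IFNAR2 and TYK2 had 9.32 to 19.7 on merged exons and 14.5 to 41.6 by reference transcript, and which was lowest changed with the line and the length used. In HAQ/- it was IFNAR2 on merged exons (9.32 and 11.0) and TYK2 by reference transcript (17.3 and 18.5). For the type III receptor it was IFNLR1 in every library by both lengths.

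**Figure D5:**
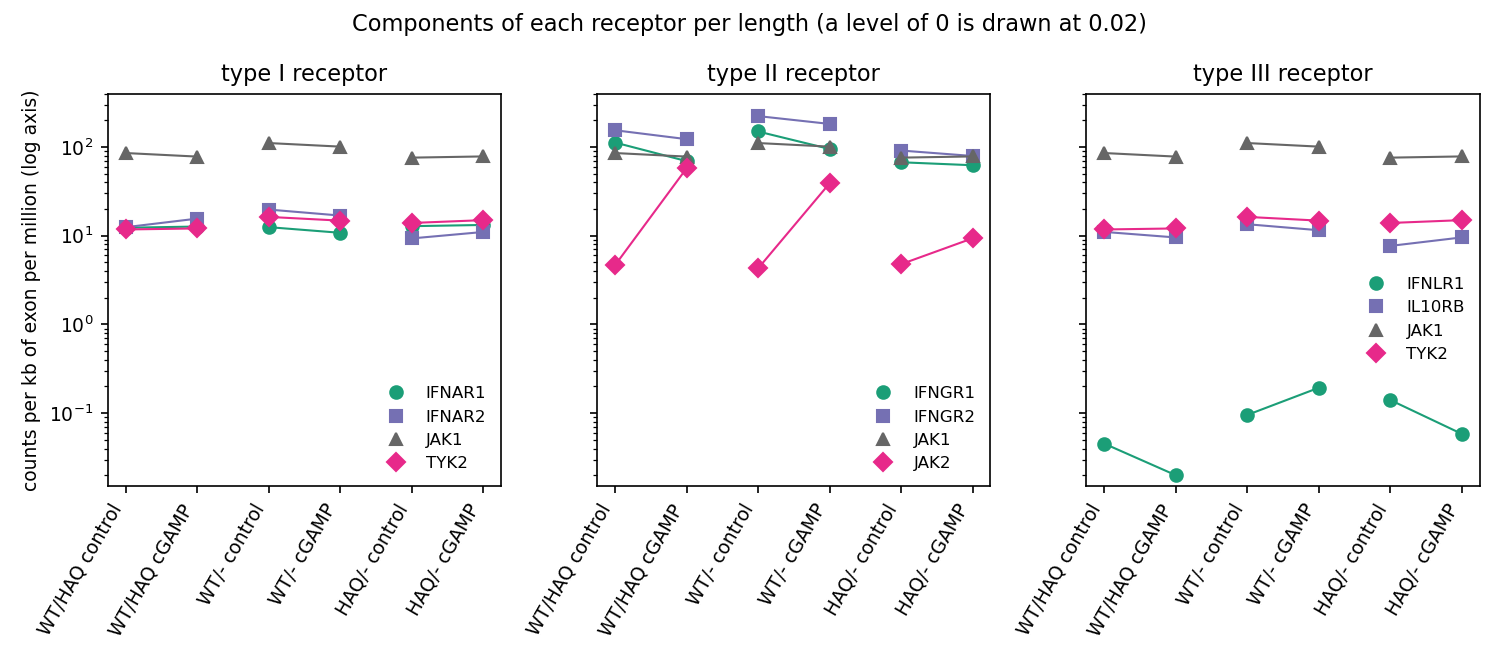
Counts per kilobase of merged exon, scaled to a common library total (log axis), for the components of each receptor in the 6 libraries, with lines joining control and cGAMP of a line. JAK2 moves from 4.65 to 57.4 in WT/HAQ and from 4.77 to 9.34 in HAQ/-, and IFNLR1 stays at or below 0.194.

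Downstream of the kinases, 7 of 8 genes of the STAT and IRF9 list were analysed, and 3 rose with cGAMP, as did 2.27% of all genes. STAT2 had 496, 883 and 471 normalized counts in the WT/HAQ, WT/- and HAQ/- control libraries and 4691, 5182 and 1643 with cGAMP (2.54, adjusted p = 0.0189). IRF9, which joins the STAT dimer in the type I and III response, had 188, 545 and 190.2 without and 1345, 1414 and 953 with cGAMP (2.16, adjusted p = 0.0297). In HAQ/- minus WT/-, 4 of the 7 were lower, against 11.1% of all genes, among them STAT6 (-1.11, adjusted p = 0.00502), STAT5A (-1.75, adjusted p = 0.00677) and STAT3 (-0.66, adjusted p = 0.00951). The median over all 7 analysed genes of this list was -1.06, beside -0.015 over all genes.

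Of 14 inhibitors, 3 rose with cGAMP (2.27% of all genes). USP18, which displaces JAK1 from IFNAR2, had 55.7, 68.1 and 40.1 normalized counts without and 2436, 2307 and 688 with cGAMP (4.94, adjusted p = 0.00388). SOCS1, a kinase inhibitor, had 18.6, 34.5 and 26.2 without and 191, 402 and 118 with cGAMP (3.06, adjusted p = 0.0140). SOCS3 had 341, 1606 and 201 without and 677, 3964 and 617 with cGAMP, higher with cGAMP in 3 of 3 lines (1.30, adjusted p = 0.0152). The WT/- clone had the most SOCS3 in either treatment, and HAQ/- minus WT/- gave -2.82 with adjusted p = 0.00202. In that contrast 3 of the 14 inhibitors were lower and 1 was higher, SOCS2 (2.04, adjusted p = 0.0188), where 11.1% of all genes were lower and 7.94% higher. Without the treatment block the calls of SOCS3 (adjusted p = 0.1095), SOCS2 (0.0627) and the other 2 inhibitors were lost. Of 5 genes that control IFNAR1 turnover, 1 rose with cGAMP (2.27% of all genes), the kinase PRKD2 (1.19, adjusted p = 0.0396), and 0 of 5 were called between the clones by edgeR or DESeq2, with 1 at an unadjusted p under 0.05.

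Among 31 further genes, 30 for JAK-coupled receptors or binding proteins and the kinase JAK3, 18 were analysed. Of these, edgeR called 4 higher with cGAMP (2.27% of all genes). IL10RA, whose product pairs with IL10RB to sense interleukin 10, had 6, 2 and 5 counts in the WT/HAQ, WT/- and HAQ/- control libraries and 264, 104 and 35 with cGAMP (5.04, adjusted p = 0.0149). IL10RA passed the count filter only through its cGAMP libraries, so its call is not read against the share of all genes. IL7R had 26.5, 111 and 2.62 normalized counts without and 147, 1146 and 2.19 with cGAMP, so it was near the floor in HAQ/- only. The cGAMP call of IL7R was lost with DESeq2. The other 2 were IL15RA (1.23, adjusted p = 0.0166) and OSMR (0.59, adjusted p = 0.0313). In HAQ/- minus WT/-, 3 of the 18 were lower, namely IL7R, IL6ST (-0.99, adjusted p = 0.00464) and OSMR (-0.69, adjusted p = 0.0132), against 11.1% of all genes, with a list median of -0.14. Without the treatment block IL7R (adjusted p = 0.0862) and OSMR (0.268) were not called. Near JAK2 on chromosome 9, 8 of 12 neighbours were analysed and 1 rose with cGAMP (2.27% of all genes), CD274, which encodes PD-L1, with 158, 109 and 47.1 normalized counts without and 862, 1405 and 201 with cGAMP (2.81, adjusted p = 0.02003). In HAQ/- minus WT/-, 2 of the 8 were lower (11.1% of all genes), CD274 (-2.23, adjusted p = 0.0219) and RIC1 (-0.39, adjusted p = 0.0393). Without the treatment block neither was called. RIC1 was under 0.05 in only 2 of 7 alternatives, with adjusted p from 0.0388 to 0.150.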

How the data were processed

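The files deposited by the authors hold unnormalized estimated counts, 1 row for each Ensembl gene, for 6 TruSeq mRNA libraries, 1 per line and treatment, and the submitters' processing notes name STAR, RSEM and GRCh38 (hg38) with no version or annotation release given. Columns were assigned by the library names in the labels, and 0 columns were left over. Values were rounded to whole counts (12444822 to 17608467 per library), which sets the counting error. The analysis kept the 15126 genes whose mean count reached 10. Library sizes were scaled by TMM, and additive models of line and treatment, with 2 residual degrees of freedom, were fitted with edgeR 4.0.16 (quasi-likelihood F test, R 4.3.3, Benjamini-Hochberg over all analysed genes). DESeq2 1.42.0 was an alternative. Both libraries of a line served as its replication, so p-values measure the spread left by that model and not that between cultures. Single ratios carry exact Clopper-Pearson intervals and single levels exact Poisson intervals at 95%, both for counting error only, from Python 3.11.15 with scipy 1.17.1. Counts under 3 were set to 3 before a ratio, and 1.5-fold was the threshold without a test. Lengths, positions and exons are from GENCODE release 44, and promoter windows from RefSeq (GRCh38.p14). Named genes are the members, from each list up to 4 genes with the smallest p for cGAMP and up to 3 for HAQ/- minus WT/-, all of a list of 8 or fewer, and the 5 nearest genes to members spanning over 1 log2 unit. Members and lists were chosen with earlier results of these data known. By name, 1 listed gene is left out of the text. The scripts were tested on simulated data. Alternatives were other scaling, filters, thresholds, lengths and depth, DESeq2, models without a block and fits without a line.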

Additional observations from a re-analysis of the deposited data

Results flagged for a closer look

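IFNAR2 was the 1 analysed member whose counting interval lay above no change in 1 line and below it in another. IFNAR1, IL10RB, JAK1 and TYK2 also had folds on both sides of no change, but not with both intervals clear of it. It was higher with cGAMP in WT/HAQ (log2 fold 0.37, interval 0.23 to 0.51) and lower in WT/- (-0.14, -0.28 to -0.01), a difference of 0.51 (0.506). With cGAMP, IFNAR2 was also higher in HAQ/- (log2 fold 0.25, interval 0.08 to 0.42), and this log2 fold exceeded that in WT/- by 0.39. Each direction rests on 1 library against 1 library, and the difference was not tested. Both comparisons share the WT/- libraries.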

How the results depend on the processing

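The causes of the changes below were not tested. With cGAMP, 344 genes were higher and 145 lower. DESeq2 gave 772 and 583, a mean count of at least 1 gave 581 and 424, no filter gave 943 and 864, no line block gave 57 and 4, and leaving out a line gave 0 to 1313 and 0 to 1314. Members called higher went from 0 to 1 with DESeq2, with a mean count of at least 1, with no filter and, on leaving out a line, ranged from 0 to 1, and members called lower went from 0 to 1 with no filter and ranged from 0 to 1 on leaving out a line.

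For WT/- minus WT/HAQ, 755 genes were higher and 577 lower, against 115 and 132 without the treatment block and 1506 and 1083 without HAQ/-. The 1 member higher became 2 with DESeq2, its size factors, a mean count of at least 50 or no filter, 0 without the block and 3 without HAQ/-. For HAQ/- minus WT/HAQ, 57 and 128 became 182 and 380 with DESeq2, 111 and 258 with a mean count of at least 1, 251 and 496 with no filter, 6 and 8 without the block and 0 and 0 without WT/-, and the 1 member lower became 0 in the last 2 settings. For HAQ/- minus WT/-, 1201 and 1679 became 341 and 369 without the block, and the members lower went from 5 to 2.

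Past 1.2-fold, members raised and lowered with cGAMP were 2 and 2 in WT/HAQ, 1 was lowered in WT/- and 2 were raised in HAQ/-. Past 2-fold, 0 were lowered in WT/HAQ and 0 raised in HAQ/-. Total-count scaling and thinning to the smallest library each gave 1 lowered in WT/-. Between control libraries, WT/- over WT/HAQ went from 1 raised to 6 past 1.2-fold and 0 past 2-fold, HAQ/- over WT/HAQ from 3 lowered to 0 past 2-fold, and HAQ/- over WT/- from 5 to 3. Between cGAMP libraries, WT/- over WT/HAQ went from 1 raised and 0 lowered to 0 and 1 by total counts, and to 5 and 1 past 1.2-fold. Past 2-fold it had 0 raised. HAQ/- over WT/HAQ went from 3 lowered to 1 past 2-fold, and HAQ/- over WT/- from 4 to 2. By fold, shares of all genes are given only for cGAMP over control at 1.5-fold, so no excess is read from the other counts.

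No called member changed sign, nor did a listed gene called for cGAMP or HAQ/- minus WT/-; markers, and listed genes in the other contrasts, were not refitted by name. Without the line block, USP18 was the 1 listed gene that kept its cGAMP call. Without the WT/HAQ libraries IFNB1, IFNL1, IRF9, SOCS1, PRKD2, OSMR, IL10RA and CD274 lost theirs. Among values not called, the cGAMP log2 fold change over the 3 lines crossed 0 for IFNAR1 (-0.03 to 0.08), IL10RB (-0.15 to 0.09) and JAK1 (-0.07 to 0.00). Total-count scaling moved the median over all genes of HAQ/- over WT/- from 0.00 to 0.10 in control libraries and from -0.02 to 0.13 in cGAMP libraries. Depth limits IFNLR1, with at most 3 counts in a library. RNA was measured here and not receptor protein or signalling.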
